A study of Mus musculus with 6 samples.

Results

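Glycolysis and the pentose phosphate pathway were followed in splenic NK1.1+ cells through a list of 36 genes. The list runs along the route of glucose carbon, through glucose and lactate transporters, the enzymes of glycolysis and their regulators, the enzymes that route pyruvate, and the pentose phosphate branch. Genes were taken from this list by the symbol that the array annotation gives each probe, and the brightest usable probe stood for each gene. Of the 36 listed genes, 32 had a named probe and 26 had a probe that reached the detection level in 3 mice or more, out of 9173 genes measured in that way. The rule picks genes by symbol, and measured values enter through the choice of probe and the detection level. The list was drawn up with earlier results of these data known.

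RNA of splenic cells of 6 mice was hybridised to an Illumina mouse BeadArray, in which each probe gives a brightness that was deposited on a log2 scale. TLR7tg mice (n = 3) are a transgenic line for Tlr7, a receptor for single-stranded RNA in endosomes, and are used as a model of systemic lupus erythematosus. B6 mice (n = 3) are the wild type. The sources used here do not give the promoter of the transgene, the ages of the mice or the method of isolating the cells. Sample labels call the TLR7tg cells NK1.1+ and the B6 cells NK cells, whereas the series design says NK1.1+ of both groups. Each mouse had its own identifier, so p-values measure the spread between mice. The replicate numbers used below are names given in accession order. They coincide with neighbouring mouse identifiers, which are used as a block where that changes a call.

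Glycolysis splits glucose to pyruvate in the cytosol. Hexokinases trap the sugar as glucose 6-phosphate, phosphofructokinase commits it to breakdown, and the later enzymes recover ATP and NADH. Lactate dehydrogenase then returns NADH to NAD+, or pyruvate dehydrogenase passes the carbon to mitochondria. The pentose phosphate pathway leaves from glucose 6-phosphate: its oxidative arm makes NADPH, and its non-oxidative arm exchanges sugars between ribose 5-phosphate and glycolysis. NK cells raise glycolysis when activated. Neutrophils and macrophages depend on it heavily, and neutrophils also draw NADPH for their oxidative burst.

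The transgene's own gene checked the genotype labels. The Tlr7 probe read 13.04, 14.45 and 13.92 (log2) in TLR7tg replicates 1, 2 and 3, against 8.48, 9.39 and 9.53 in B6 replicates 1, 2 and 3. All TLR7tg mice were above all B6 mice, by 4.67 in the mean. The cell label was checked in the same way. All 10 measured NK cell markers were lower in TLR7tg by limma, with a mean level of 7.67, 7.81 and 8.72 in TLR7tg mice, against 11.14, 11.06 and 11.08 in B6 mice. Ncr1 and Eomes, which define NK cells, were below the detection level of 6.9 in all TLR7tg mice. Both passed the filter through the B6 mice alone, and Ncr1 was dim there too, at 7.44, 7.50 and 7.45. The other measured NK markers reached the level in some or all TLR7tg mice. Klrd1, for example, read 8.70, 9.33 and 11.05 there, against 13.00, 13.74 and 13.92 in B6 mice. The NK markers were thus lower but not absent in TLR7tg mice, and did not bear out the NK label in full. The probe of Klrb1c, the gene of the NK1.1 antigen, read 7.08, 7.41 and 7.92 in TLR7tg mice and 8.96, 9.93 and 10.02 in B6 mice. Of the neutrophil markers 7 of 8 were higher, with a mean level of 11.81, 12.41 and 8.82 in TLR7tg mice, against 7.64, 7.43 and 6.89 in B6 mice. Of the monocyte and macrophage markers 6 of 9 were higher, at 11.46, 11.34 and 11.07 in TLR7tg mice and 9.35, 9.74 and 10.05 in B6 mice. T cell markers were lower for 3 of 4, at 7.57 to 7.87 in TLR7tg mice and 9.16 to 9.46 in B6 mice. Erythroid markers were higher for 3 of 4, at 9.12 to 10.77 in TLR7tg mice and 7.89 to 8.24 in B6 mice. Among these 3, Klf1 was below the detection level in all B6 mice and passed the filter through the TLR7tg mice alone. No B cell marker (of 2) and no proliferation marker (of 4) passed, with 0 and 2 of them at an unadjusted p under 0.05. The part of this difference in cell markers in any result below was not tested. RNA was measured in bulk, so fewer cells of a type and less RNA per cell cannot be told apart.

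Across the pathway a few isozymes moved far and most genes did not pass the test. Of the 26 measured genes, 4 were higher in TLR7tg: Slc2a6, Hk3, Pfkfb4 and Pgk1. Slc2a3 was lower, and 21 did not pass. At an unadjusted p under 0.05 there were 11 genes in all. The test was limma with p-values adjusted by Benjamini-Hochberg over all kept probes, at a threshold of 0.05. The share of pathway genes that were higher was 15.4%, beside 7.74% of all genes, and the share that were lower was 3.85%, beside 6.97% of all genes. All TLR7tg mice were above all B6 mice for 5 of the 26 (19.2%), where 14.1% of all genes had that pattern, and below all B6 mice for 4 (15.4%), where 18.5% of all genes did. The median difference, TLR7tg minus B6, was 0.22 over the 26 genes and −0.06 over all genes. With mice of neighbouring identifiers as a block, 9 of the 26 were higher and 2 lower, beside 12.2% and 12.7% of all genes, and the 5 calls above were kept. With so few genes called, these shares describe the list and were not tested.

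**Figure D1:**
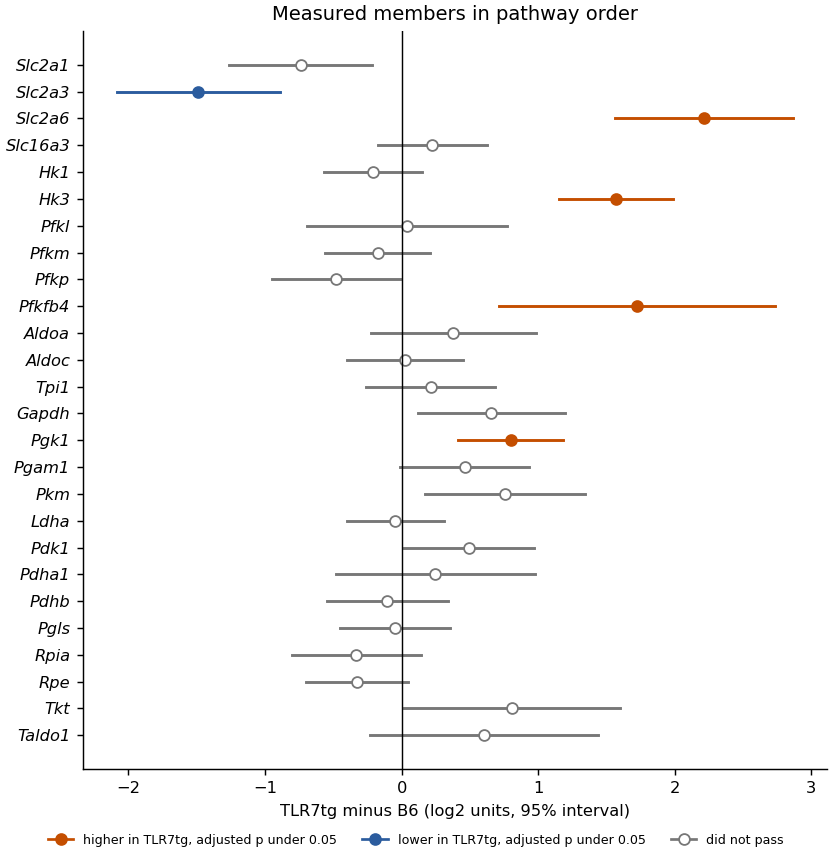
Differences between TLR7tg and B6 (x axis, TLR7tg minus B6 in log2 units) for the 26 measured genes in pathway order (y axis). Points are differences of means of 3 mice, bars are 95% intervals from limma, orange is higher and blue lower past the adjusted threshold. Slc2a6, Hk3, Pfkfb4 and Pgk1 lie to the right, at 2.21, 1.57, 1.72 and 0.80, and Slc2a3 lies to the left at −1.49.

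The upstream windows of the 4 higher genes are shown because hypoxia-inducible factor and Myc are textbook regulators of glycolytic genes and bind short core motifs. Each line gives the 250 bases before a transcript start that RefSeq lists for the gene on GRCm38.p6, 5′ to 3′ on the gene's strand. For Pfkfb4 that start lies inside the annotated span of the gene (chr9:108988272-109032236), and the Hk3 window partly overlaps the span of Hk3. Capitals mark CACGTG (an E-box) and the hypoxia response cores ACGTG and GCGTG, searched on both strands, so that CACGT and CACGC are the same cores read from the other strand. An E-box holds ACGTG on both strands.
Slc2a6, chr2:27027999-27028248, minus strand: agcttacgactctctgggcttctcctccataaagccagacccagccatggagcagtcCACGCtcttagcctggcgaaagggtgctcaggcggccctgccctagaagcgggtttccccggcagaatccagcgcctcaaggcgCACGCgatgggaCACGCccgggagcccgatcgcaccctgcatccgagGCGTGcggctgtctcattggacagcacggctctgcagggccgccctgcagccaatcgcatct
Hk3, chr13:55021386-55021635, minus strand: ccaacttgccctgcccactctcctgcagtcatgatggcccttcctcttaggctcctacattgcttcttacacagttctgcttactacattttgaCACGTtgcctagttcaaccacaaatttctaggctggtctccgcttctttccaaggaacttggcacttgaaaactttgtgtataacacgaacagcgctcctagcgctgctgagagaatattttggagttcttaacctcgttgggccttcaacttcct
Pfkfb4, chr9:108991652-108991901, plus strand: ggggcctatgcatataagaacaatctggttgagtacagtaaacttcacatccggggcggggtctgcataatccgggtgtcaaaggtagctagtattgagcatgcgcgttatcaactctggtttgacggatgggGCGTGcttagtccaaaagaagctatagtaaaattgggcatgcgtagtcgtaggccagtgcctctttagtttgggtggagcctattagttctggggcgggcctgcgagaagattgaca
Pgk1, chrX:106186850-106187099, plus strand: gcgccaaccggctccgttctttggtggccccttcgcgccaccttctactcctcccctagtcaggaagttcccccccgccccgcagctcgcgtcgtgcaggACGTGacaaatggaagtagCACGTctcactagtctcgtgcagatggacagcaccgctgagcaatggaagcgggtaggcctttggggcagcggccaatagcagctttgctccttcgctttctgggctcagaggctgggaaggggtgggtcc

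Slc2a6 has 4 GCGTG cores in this window, Pfkfb4 has 1, Hk3 has 1 ACGTG core and Pgk1 has 2. None of these 4 windows holds an E-box, and 4 of the 49 promoters that RefSeq gives for 35 of the listed genes do. Over these 49, ACGTG was found in 32.7%, beside 16.6% of all promoters and 21.6% of promoters of genes with a kept probe. GCGTG was found in 57.1%, beside 28.2% and 43.5%, and the E-box in 8.16%, beside 6.02% and 8.30%. These are matches of letters, not sites, and no binding was measured here.

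Glucose transport showed opposite differences among its family members. Slc2a6 encodes GLUT6, a transporter found mostly on vesicles and lysosomes. Its probe read 11.02, 11.31 and 11.09 in TLR7tg mice, against 8.28, 9.01 and 9.50 in B6 mice. The groups did not overlap, and B6 replicate 1 was the lowest mouse. Slc2a6 was higher in TLR7tg by 2.21 ± 0.29 (log2, SE; 4.64-fold; limma adjusted p = 0.0015). Folds here and below are taken on the deposited scale and are not folds of scanner intensity. Slc2a3 encodes GLUT3, a high-affinity glucose transporter of the plasma membrane. Its values were 8.53, 9.42 and 8.48 in TLR7tg mice and 10.49, 10.24 and 10.17 in B6 mice. TLR7tg replicate 2 stood closest to the B6 mice but still below them. Slc2a3 was lower in TLR7tg by limma (difference −1.49 ± 0.26, SE; 2.81-fold; adjusted p = 0.00627). Both calls held in all 18 alternative settings.

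Slc2a1 encodes GLUT1, the transporter most widely used for basal glucose uptake. It read 8.90, 9.48 and 9.77 in TLR7tg mice, against 10.07, 10.17 and 10.13 in B6 mice. Every TLR7tg mouse was below every B6 mouse, but the TLR7tg mice spread over a range far wider than that of the B6 mice. The difference of −0.74 ± 0.23 (SE) missed the limma threshold (adjusted p = 0.0714). A named-array block, which sets the mice whose arrays the labels name against the other 4, gave a limma adjusted p of 0.0203. With mice of neighbouring identifiers as a block it was 0.0222. Slc16a3, which encodes the lactate exporter MCT4, was close to the detection level: 6.86, 7.22 and 7.18 in TLR7tg mice and 6.77, 6.92 and 6.91 in B6 mice. It was the only one of the 26 genes not above that level in every mouse. Slc16a1, which encodes the lactate and pyruvate transporter MCT1, was below the level.

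**Figure D2:**
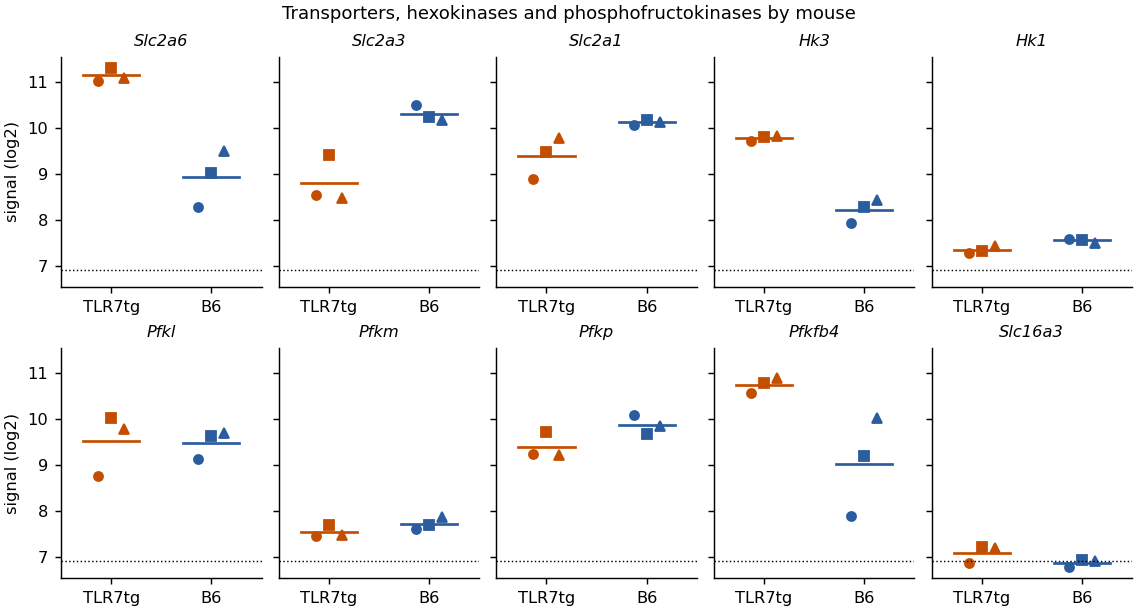
Values in each mouse (y axis, deposited log2 value) for transport and upper glycolysis genes, TLR7tg left and B6 right in each panel. Circles, squares and triangles are replicates 1, 2 and 3, lines are group means, and the dotted line is the detection level of 6.9. The groups separate upward for Slc2a6, Hk3 and Pfkfb4 and downward for Slc2a3, Slc2a1 and, by a small step, Hk1.

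At the hexokinase step, Hk3 was higher in TLR7tg while Hk1 was not called. Hexokinase 3 is an isozyme of myeloid cells. Its probe read 9.71, 9.80 and 9.82 in TLR7tg mice, against 7.92, 8.28 and 8.42 in B6 mice. The TLR7tg mice lay within a narrow band, and the groups did not overlap. Hk3 was higher by 1.57 ± 0.18 (SE; 2.97-fold; limma adjusted p = 0.000984), a call that held in all 18 alternatives. Hexokinase 1, the housekeeping isozyme held at mitochondria, read 7.28, 7.32 and 7.42 in TLR7tg mice and 7.59, 7.57 and 7.50 in B6 mice. Its groups also did not overlap, in the other direction, with a difference of −0.21 ± 0.16 (SE; limma adjusted p = 0.481). A second Hk1 probe gave −0.23 (adjusted p = 0.547). Hk2, the inducible isozyme, and Gpi1, the isomerase of the next step, had no named probe and were not analysed here.

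Because levels of different probes cannot be set against each other, isozymes were compared through how their difference within a mouse changed between genotypes. Of 15 pairs fixed for the pathway, 9 had both probes measured. Hk3 minus Hk1 was 2.43, 2.48 and 2.40 in TLR7tg mice, against 0.34, 0.71 and 0.92 in B6 mice. That balance shifted toward Hk3 by 1.78, with no overlap between groups. Slc2a6 minus Slc2a3 was 2.49, 1.90 and 2.61 in TLR7tg mice and −2.21, −1.23 and −0.67 in B6 mice, a shift of 3.70. Slc2a6 shifted by 2.95 relative to Slc2a1, also without overlap. In these pairs the first gene alone was above, and the second alone below, in every TLR7tg mouse. Their lack of overlap therefore follows from the single genes and adds nothing to them. Slc2a3 shifted by −0.75 relative to Slc2a1, where the closest mice were −0.06 in TLR7tg and 0.04 in B6. For each of these 4 pairs the two-sided exact permutation test gave p = 0.1, the smallest that 3 against 3 mice allow (adjusted over the 9 pairs, 0.225), so none could pass a threshold of 0.05.

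**Figure D3:**
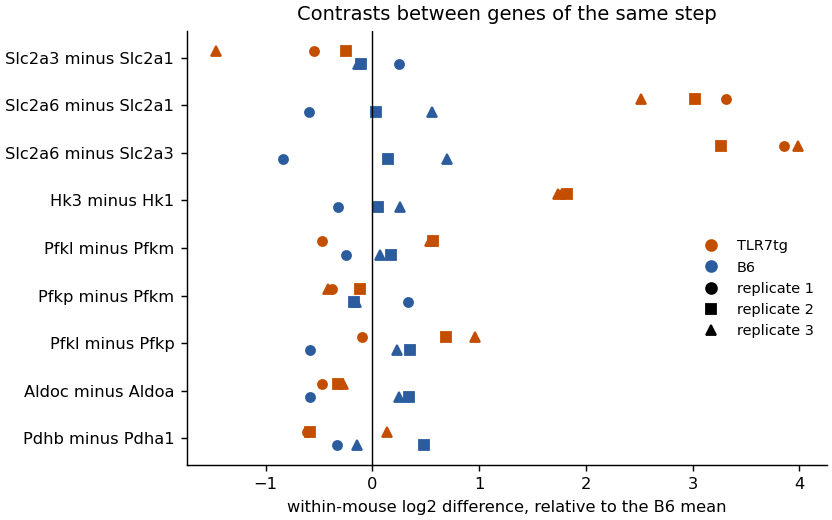
Difference between the log2 values of both genes of a pair in each mouse (x axis, relative to the B6 mean of that pair) for the 9 isozyme pairs (y axis), with TLR7tg above B6 in each row. Circles, squares and triangles are replicates 1, 2 and 3, TLR7tg in orange and B6 in blue. The groups are apart for the 3 transporter pairs and for Hk3 minus Hk1, and overlap for the phosphofructokinase, aldolase and pyruvate dehydrogenase pairs.

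None of the 3 phosphofructokinase subunits was called by limma, with 1, Pfkp, at an unadjusted p under 0.05. Pfkl, the liver-type subunit, read 8.75, 10.02 and 9.79 in TLR7tg mice and 9.12, 9.63 and 9.70 in B6 mice, so TLR7tg replicate 1 was the lowest mouse and TLR7tg replicate 2 the highest. Pfkp, the platelet-type subunit, read 9.24, 9.72 and 9.21 in TLR7tg mice and 10.09, 9.66 and 9.85 in B6 mice. Its difference was −0.48, with a 95% interval from −0.95 to −0.01 (limma adjusted p = 0.184), and a second probe gave −0.27. Pfkm, the muscle-type subunit, read 7.46, 7.68 and 7.48 in TLR7tg mice and 7.60, 7.69 and 7.86 in B6 mice. Its brightest probe gave −0.18 and the other kept probes gave 0.07 and 0.05. Relative to Pfkp, Pfkl shifted by 0.52, with overlapping groups (exact permutation p = 0.3, adjusted 0.45). Relative to Pfkm, Pfkl shifted by 0.21 (p = 0.6, adjusted 0.6) and Pfkp by −0.31 (p = 0.3, adjusted 0.45) in the same exact permutation test. The interval of the Pfkl difference, −0.70 to 0.77, leaves room for changes of either direction.

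Pfkfb4 encodes a bifunctional enzyme that makes and breaks fructose 2,6-bisphosphate, the strongest activator of phosphofructokinase. Its probe read 10.56, 10.79 and 10.89 in TLR7tg mice, against 7.88, 9.20 and 10.01 in B6 mice. The TLR7tg mice were close together, while the B6 mice spread widely with replicate 1 at the bottom. Pfkfb4 was higher by 1.72 ± 0.45 (SE; 3.29-fold; limma adjusted p = 0.0349). A second, dim Pfkfb4 probe did not pass the detection filter and differed by 0.18. B6 replicate 1 also had the lowest monocyte and macrophage marker level, and the lowest Slc2a6 and Hk3 values. Among TLR7tg mice, replicate 1 had the highest level of these markers and the lowest Pfkfb4, Slc2a6 and Hk3 values. A link between markers and these genes was not tested. The Pfkfb4 difference was 2.69 between the mice called replicate 1 and 1.24 over the other 4 mice. The adjusted p of Pfkfb4 was over the threshold in 4 alternatives, those without TLR7tg replicate 2, without TLR7tg replicate 3, without B6 replicate 2 and with no filter on dim probes (range over the 18, 0.00505 to 0.183). Pfkfb3, the inducible relative, and Fbp1, the gluconeogenic fructose-1,6-bisphosphatase, were below the detection level.

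Aldolase and triose-phosphate isomerase, which split fructose 1,6-bisphosphate and interconvert the products, did not pass. Aldoa, the ubiquitous aldolase, read 10.89, 10.22 and 10.42 in TLR7tg mice and 10.65, 9.85 and 9.90 in B6 mice, a difference of 0.38 (limma adjusted p = 0.45). Aldoc, the brain-type aldolase, read 7.56, 7.03 and 7.28 in TLR7tg mice and 7.19, 7.33 and 7.28 in B6 mice, a difference of 0.02. The aldolase balance, Aldoc minus Aldoa, shifted by −0.36 with overlapping groups (exact permutation p = 0.4, adjusted 0.514). Tpi1 differed by 0.21 (adjusted p = 0.621).

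In lower glycolysis all 4 measured enzymes had positive differences, with a median of 0.71, and Pgk1 passed the test. Pgk1 encodes phosphoglycerate kinase, which makes the first ATP of glycolysis. It read 10.78, 10.65 and 10.59 in TLR7tg mice, against 10.05, 9.83 and 9.76 in B6 mice. The mice of a group were close together and the groups were apart. Pgk1 was higher by 0.80 ± 0.17 (SE; 1.74-fold; limma adjusted p = 0.0149), with 0.73 between the mice called replicate 1 and 0.83 over the other 4. Further, dim Pgk1 probes did not pass the detection filter and differed by −0.005 and 0.12. The adjusted p of Pgk1 was over the threshold without B6 replicate 2, without B6 replicate 3 and with normexp background correction (range over the 18 alternatives, 0.00401 to 0.0721).

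Gapdh, which encodes the dehydrogenase that makes NADH and is often used as a reference gene, read 11.97, 12.64 and 12.65 in TLR7tg mice and 11.48, 11.79 and 12.01 in B6 mice. Its groups met where TLR7tg replicate 1 lay just below B6 replicate 3. The difference of 0.66 ± 0.24 (SE) did not pass (limma adjusted p = 0.117, or 0.0141 with the named-array block and 0.0151 with identifiers as a block). Pkm encodes pyruvate kinase, which makes the last ATP of glycolysis. It read 11.31, 11.05 and 10.53 in TLR7tg mice and 10.54, 9.81 and 10.28 in B6 mice. TLR7tg replicate 3 and B6 replicate 1 were nearly level. The Pkm difference of 0.75 ± 0.26 (SE) did not pass (limma adjusted p = 0.0969, or 0.0252 with the named-array block and 0.0294 with identifiers as a block). Pgam1, phosphoglycerate mutase, differed by 0.46 (adjusted p = 0.208; 0.0494 with identifiers as a block).

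Enolase, the step between Pgam1 and Pkm, was seen only in part. Eno1, the ubiquitous enolase, had no named probe, and Eno2, the neuronal enolase, was below the detection level. A probe annotated to Eno1b, a near-identical copy of Eno1 whose signal cannot be assigned to it alone, differed by 0.29 (limma adjusted p = 0.373). Eno3, the muscle enolase, which belongs to the wider pathway list described below, read 12.58, 10.93 and 11.79 in TLR7tg mice, against 8.34, 8.71 and 9.42 in B6 mice. Every TLR7tg mouse was above every B6 mouse. Eno3 was higher by 2.94 ± 0.41 (SE; 7.68-fold; adjusted p = 0.00202), and this held in all 18 alternatives.

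**Figure D4:**
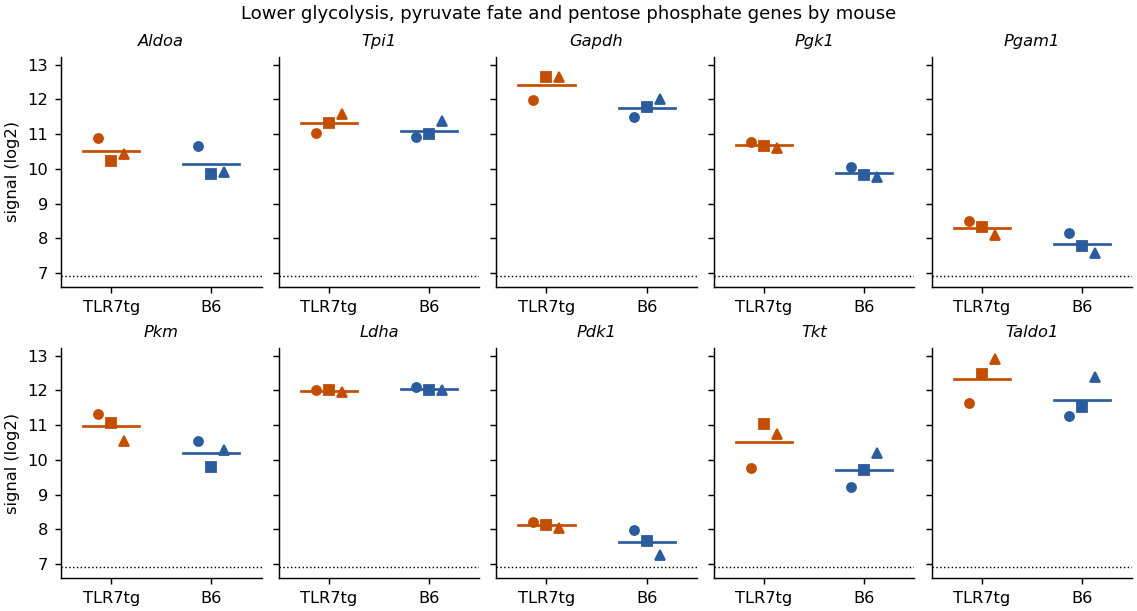
Values in each mouse (y axis, deposited log2 value) for glycolysis from aldolase on, pyruvate and pentose phosphate genes, TLR7tg left and B6 right in each panel. Circles, squares and triangles are replicates 1, 2 and 3, lines are group means, and the dotted line is the detection level of 6.9. Pgk1 separates the groups, Ldha lies near 12.00 in TLR7tg and 12.04 in B6, and Tkt and Taldo1 spread widely within both.

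Where pyruvate is routed, none of the 4 measured genes passed limma's test, with 1, Pdk1, at an unadjusted p under 0.05. Ldha, which encodes the lactate dehydrogenase subunit that favours lactate, read 12.01, 12.01 and 11.97 in TLR7tg mice and 12.11, 12.00 and 12.02 in B6 mice. The 6 values lay close together: the difference was −0.05, with a 95% interval from −0.40 to 0.31 (limma adjusted p = 0.913). Ldhb, the other subunit, was below the detection level, so the balance of both could not be read. Pdk1, a kinase that switches pyruvate dehydrogenase off, read 8.22, 8.12 and 8.03 in TLR7tg mice and 7.98, 7.65 and 7.26 in B6 mice. All TLR7tg mice were above all B6 mice, but the difference of 0.49 ± 0.21 (SE) did not pass (adjusted p = 0.184). Pdha1, the alpha subunit of pyruvate dehydrogenase, differed by 0.25 (adjusted p = 0.731), and Pdhb, the beta subunit, by −0.11 (adjusted p = 0.824). Pdhb minus Pdha1 shifted by −0.35 with overlapping groups (exact permutation p = 0.5, adjusted 0.562).

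Of the pentose phosphate genes 5 of 7 were measured and none passed limma's test (1, Tkt, at an unadjusted p under 0.05), with a median difference of −0.05. The oxidative arm was mostly unread: G6pdx, which encodes its entry enzyme, had no named probe, and Pgd, which encodes its last enzyme, was below the detection level. Pgls, the lactonase between them, differed by −0.05 (limma adjusted p = 0.921). In the non-oxidative arm the isomerases and the sugar-transfer enzymes had differences of opposite sign. Rpia, ribose-5-phosphate isomerase, differed by −0.33 (adjusted p = 0.384), and Rpe, the epimerase, also by −0.33 (adjusted p = 0.267). Every TLR7tg mouse was below every B6 mouse for Rpe, at 7.58, 7.62 and 7.68 in TLR7tg mice and 7.81, 8.10 and 7.96 in B6 mice.

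Tkt encodes transketolase, which moves carbon pairs between sugars. It read 9.78, 11.03 and 10.74 in TLR7tg mice and 9.23, 9.70 and 10.19 in B6 mice. TLR7tg replicate 1 fell inside the B6 range. The Tkt difference of 0.81 ± 0.35 (SE) did not pass (limma adjusted p = 0.187, or 0.0163 with the named-array block and 0.0186 with identifiers as a block). Taldo1, transaldolase, read 11.63, 12.46 and 12.92 in TLR7tg mice and 11.28, 11.53 and 12.38 in B6 mice, with a difference of 0.61 ± 0.37 (SE; adjusted p = 0.37; 0.0309 with identifiers as a block). In both genotypes replicate 1 was the lowest mouse for Tkt and for Taldo1.

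The mice called replicate 1 are the only ones whose arrays the labels name. Between these mice and over the other 4, the sign of the difference matched for 23 of the 26 genes. The called genes kept it: the differences were 2.73 and 1.95 for Slc2a6, 1.78 and 1.46 for Hk3, and −1.96 and −1.25 for Slc2a3. For Slc2a1 they were −1.17 and −0.52, and for Tkt 0.55 and 0.94. The median SD of the 26 genes was 0.27 in TLR7tg mice and 0.22 in B6 mice. TLR7tg replicate 3 had the lowest neutrophil marker level of its group, 8.82, beside 11.81 and 12.41. Its Hk3 value of 9.82 stood beside 9.71 and 9.80, and its Pfkfb4 value of 10.89 beside 10.56 and 10.79. These steps are small, and a link to the markers was not tested.

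**Figure D5:**
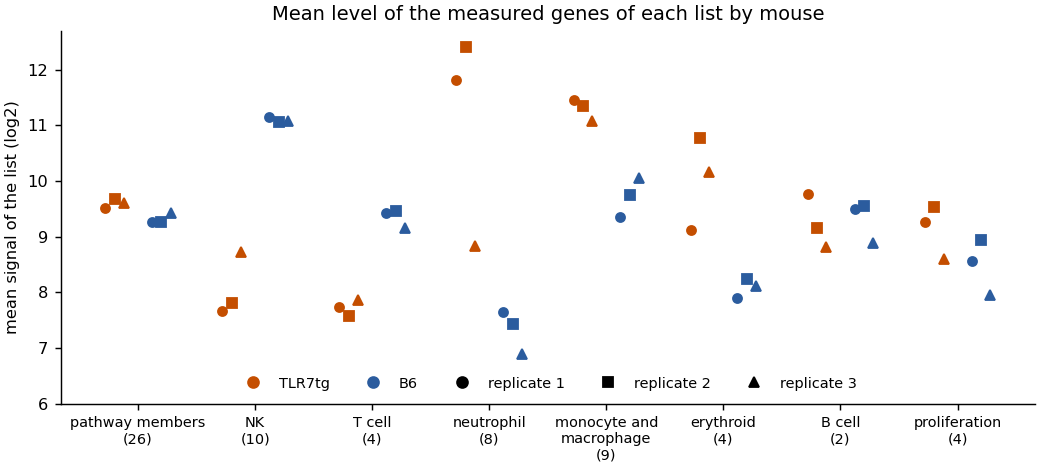
Mean log2 level of each gene list in each mouse (y axis) for the pathway genes and the cell marker lists (x axis, number of measured genes in brackets), TLR7tg in orange at the left and B6 in blue at the right of each list. Circles, squares and triangles are replicates 1, 2 and 3. The NK cell markers lie between 7.67 and 8.72 in TLR7tg mice and near 11.1 in B6 mice, and TLR7tg replicate 3 is the lowest of its group for neutrophil markers.

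Genes around the listed steps were read from a wider list. In a list of 58 other genes of sugar metabolism, 50 had a named probe and 23 were measured, of which 2 were higher in TLR7tg, 0 lower and 21 did not pass. The share higher was near the 7.74% of all genes. At an unadjusted p under 0.05 there were 4. The median difference was −0.09, beside −0.06 over all genes. The called genes were Eno3, given above, and Pdk3, another kinase that inhibits pyruvate dehydrogenase. Pdk3 read 8.92, 9.04 and 9.11 in TLR7tg mice and 8.53, 8.50 and 8.17 in B6 mice, with a difference of 0.62 (limma adjusted p = 0.0498). The Pdk3 value sat at the threshold, and 11 of its 18 alternatives took it over (adjusted p 0.0258 to 0.189). Among those not called, Adpgk, the ADP-dependent glucokinase, differed by 0.61, Khk, ketohexokinase, by 0.60, and Pdp1, the phosphatase that switches pyruvate dehydrogenase on, by −0.48. With identifiers as a block Pdp1 was lower (limma adjusted p = 0.0416).

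Of 18 measured regulators of the pathway, 1 was higher and 1 lower, where 7.74% and 6.97% of all genes were, so the counts show nothing particular to the list. Egln3, an oxygen sensor that is itself a target of hypoxia-inducible factor, read 7.49, 7.63 and 7.92 in TLR7tg mice and 6.92, 6.90 and 6.82 in B6 mice (difference 0.80; limma adjusted p = 0.0182). Txnip, a brake on glucose uptake, read 12.00, 12.25 and 11.85 in TLR7tg mice and 13.07, 12.64 and 12.74 in B6 mice (difference −0.78; adjusted p = 0.0288). Both pairs of groups were apart, but Txnip kept its call in 8 of 18 alternatives and Egln3 in 14 of 17. Hif1a differed by 0.53 (adjusted p = 0.198) and Myc by −0.08 (adjusted p = 0.883). Differences of dim genes depended on the background: with normexp correction that of Egln3 was 1.41 (adjusted p = 0.00733), that of Hk1 was −0.34 and that of Slc16a3 was 0.46, where the deposited values gave 0.80, −0.21 and 0.22.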

How the data were processed

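Splenic RNA of 3 TLR7tg and 3 B6 mice was measured. RNA was prepared with Trizol, checked on an Experion and labelled with the Illumina TotalPrep kit, per the labels' protocols. The deposited log2 values of 45281 probes were used as they are. Their sorted columns differ by at most 0.0085, and the sources used here do not name the tool behind them. Per the labels, replicate 1 of each group averages 2 technical arrays. The identifier in the title of TLR7tg replicate 1 is that of the B6 mouse, against its other labels. The deposited scanner tables hold intensity and a detection p-value for each probe, not normalised, per the file headers. They were used for the 4 arrays of these mice only, and 8 scanner columns could not be matched to a mouse. The deposited log2 values rose by 0.601 (TLR7tg replicate 1) and 0.706 (B6 replicate 1) per log2 unit of scanner intensity.

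The detection level of 6.9 is the lowest 0.1-wide bin from which at least 95% of probes had a detection p-value under 0.05 in both of these mice. The number of arrays limits the precision of every value. Probes reaching the level in at least 3 mice were kept (16535, of which 13926 had 1 gene symbol). Of all probes 34885 had 1 symbol, 18 several and 10378 none, from the platform annotation, and 34807 matched RefSeq on GRCm38.p6 with no symbol changed. limma 3.58.1 in R 4.3.3 (lmFit, eBayes) was fitted to all kept probes with Benjamini-Hochberg adjustment, and it was tested on simulated data. A gene was read through its brightest kept probe. Isozyme pairs were compared by exact permutation tests over mice. Sequences are from RefSeq.

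Values in every mouse are given for genes past the threshold and for isozyme families, and all 36 genes are accounted for. All lists were chosen with earlier results of these data known. Alternatives were other filters, scalings, background corrections, variance models and probe rules, and leaving out each mouse. Further alternatives were the named-array block and a block for neighbouring mouse identifiers. The named-array block sets the mice whose arrays are named against the other 4, whose arrays the labels do not name. The deviations of mice with neighbouring identifiers correlated at 0.629, 0.125 and 0.447. The labels do not say that identifiers mark litters or days, so the fit without the block was kept and the blocked value is given where it changes a call.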

Additional observations from a re-analysis of the deposited data

How the results depend on the processing

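Of the 5 called pathway genes, Slc2a6, Hk3 and Slc2a3 kept their call in all 18 alternatives and Pgk1 and Pfkfb4 did not, and no called gene changed direction. The count of higher pathway genes, 4, was 3 with no filter and with normexp. It was 5 with cyclic loess, with array weights and over the other 4 mice. The highest counts were 7 with the named-array block and 9 with identifiers as a block. The count of lower ones, 1, was 2 with array weights, with the named-array block and with the identifier block. These blocks also raised the calls over all genes, from 7.74% higher and 6.97% lower without a block. They were 11.1% higher and 11.8% lower with the named-array block, and 12.2% higher and 12.7% lower with the identifier block. Leaving out each mouse in turn gave 2 to 6 higher and 1 to 2 lower pathway genes. The lowest count of higher genes, 2, came without B6 replicate 2, where 4.59% of all genes were higher and 3.72% lower. By limma, Gapdh (adjusted p = 0.0257) and Tkt (0.0198) were higher without TLR7tg replicate 1. Without TLR7tg replicate 3, Slc2a1 was lower (0.0369) and Pkm higher (0.0481), so that 2 genes were lower. Of the other genes of sugar metabolism, 2 were higher and 0 lower in the fit reported. Only 1 was higher with detection in all 6 mice, with the raised detection level, with normexp and with the trended and robust variance model. The same count was found over the other 4 mice. With the named-array or the identifier block 1 of them, Pdp1, was lower. Leaving out each mouse gave 1 to 2 higher and 0 lower of these, with Khk called without TLR7tg replicate 2 and Adpgk without TLR7tg replicate 3. The 9 isozyme shifts kept their direction with normexp and with the mean of all kept probes. The cause of these changes was not tested. Scaling moved the median of all kept probes by 0.0372 or less, but cyclic loess moved some bright genes further. Gapdh went from 0.66 to 0.81 and was called (limma adjusted p = 0.0454), and Ldha, not called, went from −0.05 to 0.10. Txnip went from −0.78 to −0.63 and lost its call (limma adjusted p = 0.0781). Where leaving a mouse out left 2 mice in a group, limma pooled the spread over both groups. Dim signals, such as those of Slc16a3, Hk1 and Aldoc, limit what can be seen at those steps.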

Other observations

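Next to the oxidative pentose phosphate arm, which was mostly unread, a list of other genes around NADPH and redox metabolism could be measured. Of 17 listed genes 13 were measured, of which 4 were higher in TLR7tg, 0 lower and 9 not called by limma (7.74% of all genes were higher and 6.97% lower), with a median difference of 0.33 and 6 at an unadjusted p under 0.05. Idh1, the cytosolic isocitrate dehydrogenase that makes NADPH, read 10.05, 10.22 and 9.67 in TLR7tg mice, against 7.85, 8.07 and 8.64 in B6 mice (limma adjusted p = 0.00192). Nadk, the kinase that makes NADP+ out of NAD+, read 12.53, 12.92 and 12.37 in TLR7tg mice and 10.57, 10.83 and 11.40 in B6 mice (adjusted p = 0.00279). The groups were apart for both. Mthfd2, a mitochondrial folate enzyme, was higher by 1.59, and Gpx1, a glutathione peroxidase, by 1.47. All 4 held in all 18 alternatives. Nnt, the mitochondrial transhydrogenase, differed by −0.45 and was not called (adjusted p = 0.121).

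Glycogen is a stored form of glucose, and 12 of 16 listed genes of its metabolism were measured. Of these 3 were higher, 0 lower and 9 not called by limma (beside the same 7.74% and 6.97% of all genes), with a median difference of 0.01 and 6 at an unadjusted p under 0.05. Pygl, the liver-type phosphorylase that releases glucose units, read 11.41, 11.26 and 11.07 in TLR7tg mice, against 8.44, 8.60 and 9.14 in B6 mice. No mouse of either genotype came near the other group, and the difference was 2.52 ± 0.22 (SE; 5.73-fold; limma adjusted p = 0.000322). Ppp1r3d, a subunit that brings protein phosphatase to glycogen, was higher by 1.78 (adjusted p = 0.00116). Gyg, the protein primer of glycogen, was higher by 0.71 (adjusted p = 0.0427) and kept its call in 8 of 18 alternatives. Pygb, the brain-type phosphorylase, differed by −0.15 and was not called. Markers of several cell types also differed between these groups, as described above, and their part in the glycogen genes was not tested.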
